A study of Mus musculus with 13 samples.

Results

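In Hepa 1-6 cells, a mouse hepatoma line, 1535 of 12470 KAP1 peaks (12.3%) lay at distal active chromatin without RNA polymerase II (PolII). These PolII-free sites were chosen on the peak lists. Each overlapped a region of H3K27ac or H3K4me1 by at least 1 bp, no H3K9me3 region and no PolII peak of either condition, and had its centre more than 3 kb from the start of any protein-coding transcript of GENCODE M1 (assembly mm9). An active mark was found at 5971 KAP1 peaks, 5388 of these had no H3K9me3 and 2455 of those lay beyond 3 kb. Of these, 2080 had no control PolII peak and 1535 had no PolII peak after the Kap1 knockdown (KD) either. The Kap1 KD list held 12862 PolII peaks and the control list 5015. The last step therefore cannot tell PolII gained in the knockdown from a longer list. Because the rule used the marks, PolII and the distance, their values below are a description.

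The series had 13 samples, of which 8 had a deposited list, and each of the 8 was 1 library without a replicate. KAP1, H3K27ac, H3K4me1 and H3K9me3 were mapped by chromatin immunoprecipitation and sequencing in Hepa 1-6 cells labelled as kept in standard culture, with no hairpin named. PolII and RNA polymerase III (PolIII) were mapped in cells fixed 5 days after transduction of a short hairpin RNA, either a control one (control) or one against Kap1 (Kap1 KD), and the other 5 samples were inputs. The lists do not show how far KAP1 fell under Kap1 KD. Thus KAP1 was mapped in one culture and the polymerases in others, and no KAP1 list of the Kap1 KD cells was analysed here. Sequencing depth is unknown, so no list can be scaled for it. Every interval given is a 95% interval over peaks, regions or genes that covers counting error only. The promoters of 8 of 12 hepatocyte markers carried H3K27ac, among them Alb, Afp, Trf, Hnf4a and Foxa2, whereas Ttr, Apoa1, Apob and Serpina1a did not. No marker of blood cells (of 6) or endothelial cells (of 4) carried it, 2 of 5 of fibroblasts and stellate cells did (Col1a1 and Dcn), and 19.96% of all protein-coding genes did.

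KAP1 (Trim28) is a corepressor that KRAB zinc finger proteins bring to DNA, where it recruits SETDB1 to deposit H3K9me3 on transposable elements and imprinted regions. H3K27ac and H3K4me1 away from gene starts mark enhancers, stretches of open DNA where transcription factors such as the AP-1 dimers of Fos and Jun bind. PolIII makes tRNAs and other small RNAs, and the promoter of a tRNA gene lies inside the transcribed sequence and consists of an A box and a B box.

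The PolII-free sites differed by PolIII. At 96 sites the KAP1 peak coincided with a PolIII peak, KAP1 scores were high, and 37.5% held a B box word near the KAP1 centre. The other 1439 sites had lower scores, and 44.9% of them held an AP-1 word there. Sequence is shown for 4 sites with PolIII and 3 without, as 121 bases around the word nearest the KAP1 centre, read from mm9 on the strand on which the word reads as given, with the word in capitals. The first 4 are the highest-scoring sites with PolIII in both conditions and the B box word GGTTCGA in the peak (2 with both marks and 1 with each mark alone, ties in genome order). The other 3 are the highest-scoring sites without PolIII that hold the AP-1 word TGACTCA within 100 bp of the centre, 1 for each mark composition. Both sets were chosen after the values were seen.
Fcgr4 site, chr1:172964031-172964151, minus strand: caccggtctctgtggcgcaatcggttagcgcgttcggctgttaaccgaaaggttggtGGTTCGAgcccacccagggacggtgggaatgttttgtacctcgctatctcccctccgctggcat
Ccdc115 site, chr1:34491615-34491735, minus strand: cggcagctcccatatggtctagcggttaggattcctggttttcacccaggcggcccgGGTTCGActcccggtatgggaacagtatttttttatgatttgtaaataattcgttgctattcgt
Pllp site, chr8:97227862-97227982, minus strand: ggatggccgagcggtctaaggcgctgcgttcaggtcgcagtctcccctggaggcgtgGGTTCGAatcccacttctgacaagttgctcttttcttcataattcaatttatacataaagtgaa
BC107364 site, chr3:96232152-96232272, plus strand: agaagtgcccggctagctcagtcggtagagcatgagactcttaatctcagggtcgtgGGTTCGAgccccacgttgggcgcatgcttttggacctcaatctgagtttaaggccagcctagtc
Atl3 site, chr19:7573532-7573652, minus strand: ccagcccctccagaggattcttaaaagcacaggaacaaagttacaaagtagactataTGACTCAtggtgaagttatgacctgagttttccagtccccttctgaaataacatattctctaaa
1810013L24Rik site, chr16:8867680-8867800, plus strand: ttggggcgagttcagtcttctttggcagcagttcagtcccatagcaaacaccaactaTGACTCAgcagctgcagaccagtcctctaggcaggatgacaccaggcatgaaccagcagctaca
Ccdc130 site, chr8:86809774-86809894, minus strand: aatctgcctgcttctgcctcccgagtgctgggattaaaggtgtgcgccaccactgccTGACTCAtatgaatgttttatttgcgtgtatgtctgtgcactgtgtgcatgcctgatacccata

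The 4 B box sites all had the score of 3100, a value at which 152 KAP1 peaks were tied, 42 of them PolII-free sites. The Fcgr4 site lay 15014 bp from the nearest gene start, with the word 26 bp from the KAP1 centre, and carried both marks. The Ccdc115 site carried both marks as well, but its word was 590 bp from the centre of a KAP1 peak of 2422 bp. The Pllp site had H3K27ac alone and its word at 141 bp. The BC107364 site had H3K4me1 alone and its word at 43 bp. In RefSeq (GRCm38), used here only for which genes neighbour each other, the gene for a glutamate tRNA, n-TEttc1, stands between Dst and Ccdc115, the genes on either side of the Ccdc115 site. It has 5 tRNA genes between Fcgr4 and Fcgr3, 13 between Fcgr1 and BC107364, and 2 leucine tRNA genes (n-TLcag5 and n-TLcag4) between Pllp and Ccl22.

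The AP-1 sites scored lower. The site near 1810013L24Rik had a score of 838.71 with H3K27ac alone, and the Ccdc130 site 806.66 with H3K4me1 alone. The Atl3 site, in an intron, had a score of 542.58 with both marks. In these 3 the word was 40 to 72 bp from the KAP1 centre, and none had a PolIII peak in either condition.

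Most PolII-free sites carried both active marks. H3K27ac and H3K4me1 were both present at 1085 sites (70.7%), H3K27ac alone at 244 (15.9%) and H3K4me1 alone at 206 (13.4%). The KAP1 centre stood inside an H3K27ac region at 618 of 1329 sites with that mark (46.5%), between 2 such regions at 399 (30.0%), and beside the mark on 1 side only at 312 (23.5%). For H3K4me1 these counts were 571 (44.2%), 332 (25.7%) and 388 (30.1%) of 1291. At sites without PolIII, 41.3% of KAP1 centres were covered by H3K27ac, compared with 60.8% of positions 500 bp away, 45.3% at 1000 bp and 11.9% at 5000 bp. H3K4me1 covered 38.2% of centres and 56.2% of positions at 500 bp. These shares are shaped by the rule, which asked for a mark somewhere in the KAP1 peak. At the 96 sites with PolIII the marks were sparser and lay farther out. H3K27ac covered 25.0% of these centres and 33.3% of positions at 500 bp, and H3K4me1 21.9% of centres and 39.1% of positions at 1000 bp.

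**Figure D1:**
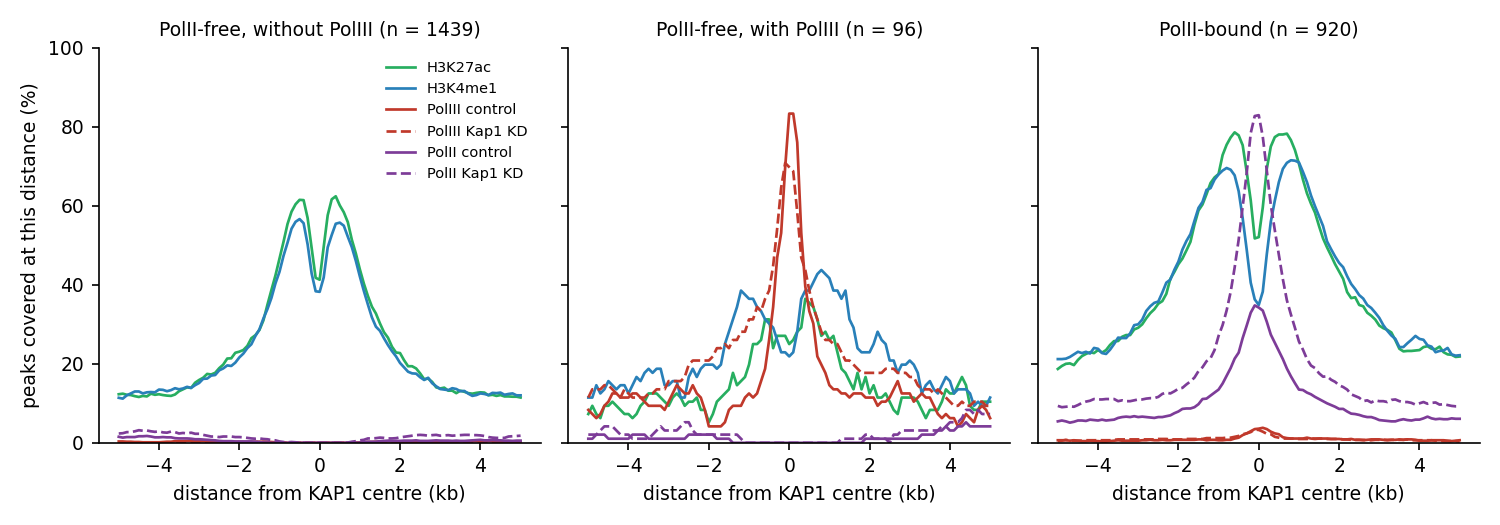
Share of KAP1 peaks (%) for which a position at the given distance from the KAP1 centre (kb) is covered by a region of each list, for PolII-free sites without PolIII, PolII-free sites with PolIII, and distal active KAP1 sites with PolII (PolII-bound). H3K27ac dips at the centre of all 3 sets (41.3, 25.0 and 52.1% at the centre) and PolIII peaks at the centre of the middle set (83.3% in the control and 69.8% under Kap1 KD).

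PolIII was not part of the rule. A PolIII peak of either condition overlapped 96 PolII-free sites (6.25%, Wilson interval 5.15 to 7.58%), and 2.72% of all KAP1 peaks. For comparison, 3 other classes of KAP1 peaks beyond 3 kb were used, namely the 920 that fit the same rule but overlap PolII (PolII-bound sites), the 3665 with H3K9me3 and neither an active mark nor PolII (H3K9me3 sites), and the 1591 with no histone mark and no PolII (unmarked sites). The share with PolIII was 4.46% of PolII-bound sites, 1.50% of H3K9me3 sites and 2.70% of unmarked sites. PolII-free sites exceeded the H3K9me3 sites by 4.75 percentage points (Newcombe interval 3.56 to 6.12) and the unmarked sites by 3.55 (2.11 to 5.04). The difference of 1.80 points to the PolII-bound sites had an interval that held 0 (-0.0928 to 3.55), and so did 10 of 12 alternative settings. Without chromosome 13 it was -0.0464 (-1.84 to 1.60). The interval left out 0 with the 1 kb limit (2.18, 0.468 to 3.799) and among KAP1 peaks above the median score (4.96, 0.820 to 8.90). PolII-free sites had a median width of 1078 bp, PolII-bound sites 1281, H3K9me3 sites 1091 and unmarked sites 994. Wider peaks have more room to overlap another list, and the part of width in these shares was not tested.

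The PolIII peaks at PolII-free sites were mostly called in both conditions. Control PolIII overlapped 91 sites (5.93%, against 2.63% of all KAP1 peaks) and Kap1 KD PolIII 72 (4.69%, against 1.51%). Of these, 67 were in common, 24 in the control only and 5 under Kap1 KD only. The 67 common sites had a median KAP1 score of 3100 (quartiles 2350 and 3100), whereas the 24 control-only sites had a median of 134 and the 5 Kap1 KD-only sites one of 459. A B box word lay within 250 bp of the centre of 34 of the 67 and of 2 of the 24. The control-only calls cannot be read as sites lost in the knockdown. The control PolIII list held 89.5% of its 2772 peaks on chromosomes 1 to 4 and the Kap1 KD list 20.6% of 431. Of the 24 control-only sites, 14 were on these chromosomes. At 11 of the 24 the numbering of the Kap1 KD list has a gap, so that a call may have been removed before deposit. At 2 of the 5 Kap1 KD-only sites the control list has one. Gaps are common throughout, as the Kap1 KD PolIII list lacks more numbers than it holds and the control list lacks 30.4%. These are shares of numbers and not of sites, and whether the 24 have more gaps than other sites was not tested. Sites without PolIII are therefore sites without a deposited PolIII call. Outside chromosomes 1 to 4 the counts were 51 common, 10 control-only and 3 Kap1 KD-only sites.

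PolII-free sites had low KAP1 scores apart from those with PolIII. Their median score was 84.1 (quartiles 63.1 and 141), compared with 94.6 for PolII-bound sites, 122 for H3K9me3 sites, 84.3 for unmarked sites and 102 for all KAP1 peaks, and 38.6% of them (36.2 to 41.1%) were above the median of all. The 96 with PolIII had a median of 2573 (quartiles 481 and 3100) and the other 1439 one of 80.2 (62.3 and 126). A score of 1000 or more was reached by 66 PolII-free sites (4.30%), as by 4.03% of all KAP1 peaks, and 63 of these 66 overlapped PolIII (95.5%, 87.5 to 98.4%), compared with 174 of the 502 KAP1 peaks in that range (34.7%, 30.6 to 38.9%). Below a score of 300 PolIII was found at 0.785 to 2.31% of the sites in each score range, near the 0.720 to 1.57% of all KAP1 peaks. At 300 to 1000 it was found at 16 of 74 sites (21.6%, 13.8 to 32.3%) and 3.73% of all KAP1 peaks (2.86 to 4.86%). Among PolII-bound sites, 32 of 50 with a score of 1000 or more had PolIII (64.0%, 50.1 to 75.9%).

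**Figure D2:**
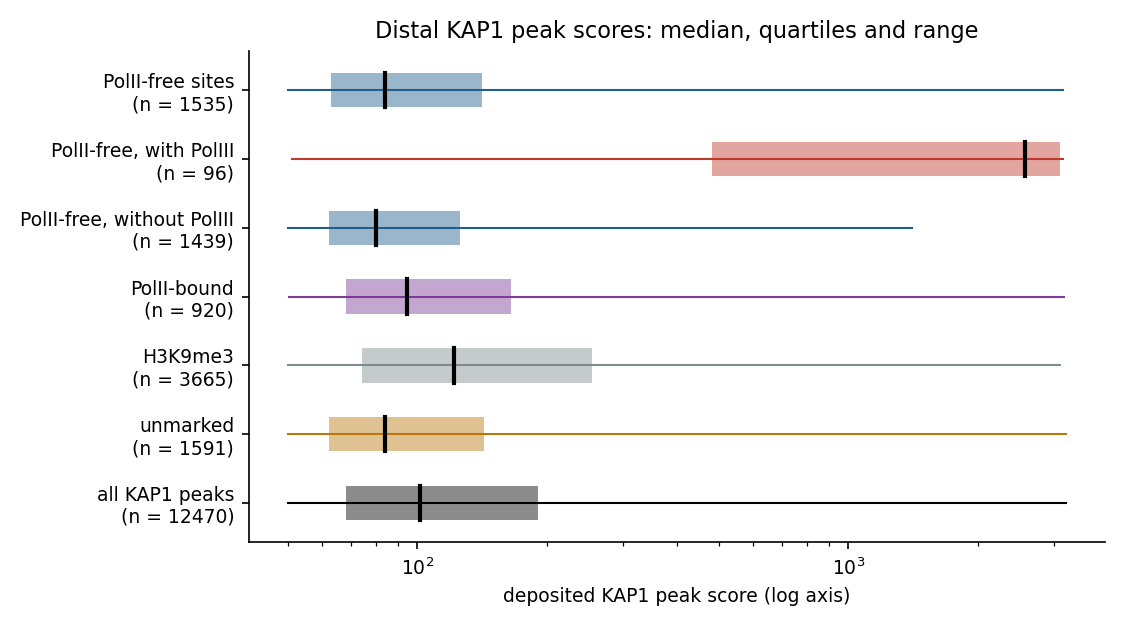
Deposited KAP1 peak scores (log axis) of the PolII-free sites, whole and split by PolIII, the 3 other distal classes and all KAP1 peaks, with the range (line), quartiles (box) and median (black bar). The PolII-free sites with PolIII have a median of 2573 against 80.2 for those without.

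The 3 PolII-free sites with a score of 1000 or more and no PolIII are named here after their values were seen. They were chr4:10621154-10622433 (score 1406.42, both marks, in an intron of a non-coding gene), chr9:70688868-70690740 (1098.25, H3K27ac alone) and chr1:120889831-120891020 (1021.8, H3K27ac alone). Those on chromosomes 9 and 1 lay in introns of protein-coding genes, and the one on chromosome 1 was nearest Gli2, a transcription factor of Hedgehog signalling, and held the AP-1 word.

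The named sites, the 2 of highest score in each mark composition, all had PolIII in both conditions and were intergenic. With both marks they were chr13:23589430-23590777 (score 3143.84, 9378 bp from the start of Btn2a2, a butyrophilin of the immune system) and chr1:34491054-34493475 (3100, the Ccdc115 site above). The second was 1 of 42 sites tied at this score and was taken by genome order, outside chromosome 18. With H3K27ac alone they were the Pllp site (chr8:97226934-97228627) and chr12:53704193-53706156, 88111 bp from the start of Arhgap5, a GTPase-activating protein. With H3K4me1 alone they were chr1:134929925-134931523, 8781 bp from Mdm4, an inhibitor of p53, and chr3:51161440-51164043, 18162 bp from Elf2, an ETS transcription factor. All of these scored 3100 except the first. The nearest PolII peak lay 2535 to 772911 bp away from them. Between Btn2a2 and Hist1h4h RefSeq has 14 tRNA genes, 2 lysine tRNA genes between Mdm4 and Pik3c2b, and 2 proline tRNA genes (n-TPtgg7 and n-TPagg5) between Elf2 and 4930583H14Rik. It has none between Arhgap5 and Akap6.

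Sites with PolIII were grouped in the genome. Chromosome 13 held 34 of the 96, and 31 of these lay between 21252053 and 23618952, a stretch that also holds replication-dependent histone genes. Of the 32 PolII-free sites in that stretch, 28 had PolIII in both conditions. The 13 in chr13:23520184-23618952 were the largest group of PolII-free sites with gaps of at most 50 kb between centres, and all 13 had PolIII, with scores from 74.97 to 3143.84. The next group, 8 sites in chr13:21946520-22033418, all had PolIII as well. By nearest gene start, 6 PolII-free sites belonged to Zfp184, which encodes a KRAB zinc finger protein, and 5 to Trim27, a tripartite motif protein like KAP1. All of them had PolIII and none held the AP-1 word. Between the protein-coding genes on either side of the site, RefSeq had at least 1 tRNA gene for 59 of 90 PolIII sites whose neighbours could be matched (65.6%, 55.3 to 74.6%). The same held for 36 of 1378 sites without PolIII (2.61%, 1.89 to 3.60%), although the stretches between their neighbours were longer (median 161615 against 48369 bp).

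The sequence at the KAP1 centre was searched for 14 words on both strands, in 500 bp. The words were AP-1 TGACTCA, the cAMP response element (CRE) TGACGTCA, C/EBP TTGCNNAA, HNF4 CAAAGTCCA, the DR1 element of nuclear receptors GGTCANAGG, FOXA TGTTTAC, HNF1 GTTAATNAT, CTCF CNAGGGGGC, the GC box of SP and KLF factors GGGCGG, the E-box CACGTG, ETS CCGGAAGT, YY1 AAGATGGCG, ZFP57 TGCCGC and the PolIII B box GGTTCGA. No word contains another, but matches of different words can share bases. Examples are the GC box with ZFP57 or CTCF, and YY1 with ZFP57. A match describes the letters and not a bound factor.

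The B box word was present at 37.5% of the PolIII sites (36 of 96) and 0.903% of the others, a difference of 36.6 points (27.5 to 46.6), and at 2.47% of all KAP1 peaks. Of the 32 PolII-free sites in the chromosome 13 stretch, 17 held it. Without chromosome 13 the difference was 29.8 points (19.7 to 42.1) for the B box word. Other KAP1 peaks with PolIII held it too, namely 16 of 41 PolII-bound sites (39.0%, 25.7 to 54.3%) and 20 of 43 unmarked sites (46.5%, 32.5 to 61.1%), and 1 of 55 H3K9me3 sites (1.82%, 0.322 to 9.61%). Counted over the whole KAP1 peak the shares were 52.1% and 1.88%, with median widths of 1357 and 1067 bp. Within 100 bp of the centre of PolIII sites the word occurred 1.35 times per kb, and 0.156 times per kb at 800 to 1000 bp. The ratio of observed to expected CpG had a median of 0.598 at PolIII sites and 0.198 at the others.

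The AP-1 word showed the reverse. It was present at 43.3% of PolII-free sites (665, interval 40.9 to 45.8%) and at 15.7% of all KAP1 peaks. It was present at 19.8% of the sites with PolIII and 44.9% of those without, a difference of -25.1 points (-32.3 to -15.7). H3K9me3 sites held it in 8.27% and unmarked sites in 14.7%, so PolII-free sites exceeded these by 35.1 points (32.4 to 37.7) and 28.6 points (25.6 to 31.6). PolII-bound sites held it in 38.6%, a difference of 4.74 points (0.710 to 8.71) whose interval reached 0 under 4 of 13 alternative settings. At sites without PolIII the word occurred 1.69 times per kb within 100 bp of the KAP1 centre and 0.241 times per kb at 800 to 1000 bp, a ratio of 6.98. The ratio was 8.12 at PolII-bound sites, 2.87 at unmarked and 1.47 at H3K9me3 sites, all without PolIII. Base composition also changed with distance, from 47.8% G+C within 100 bp to 44.2% at 800 to 1000 bp, and its part was not tested. Of the 1439 sites, 481 held 1 AP-1 word, 137 held 2 and 28 held 3 or more.

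**Figure D3:**
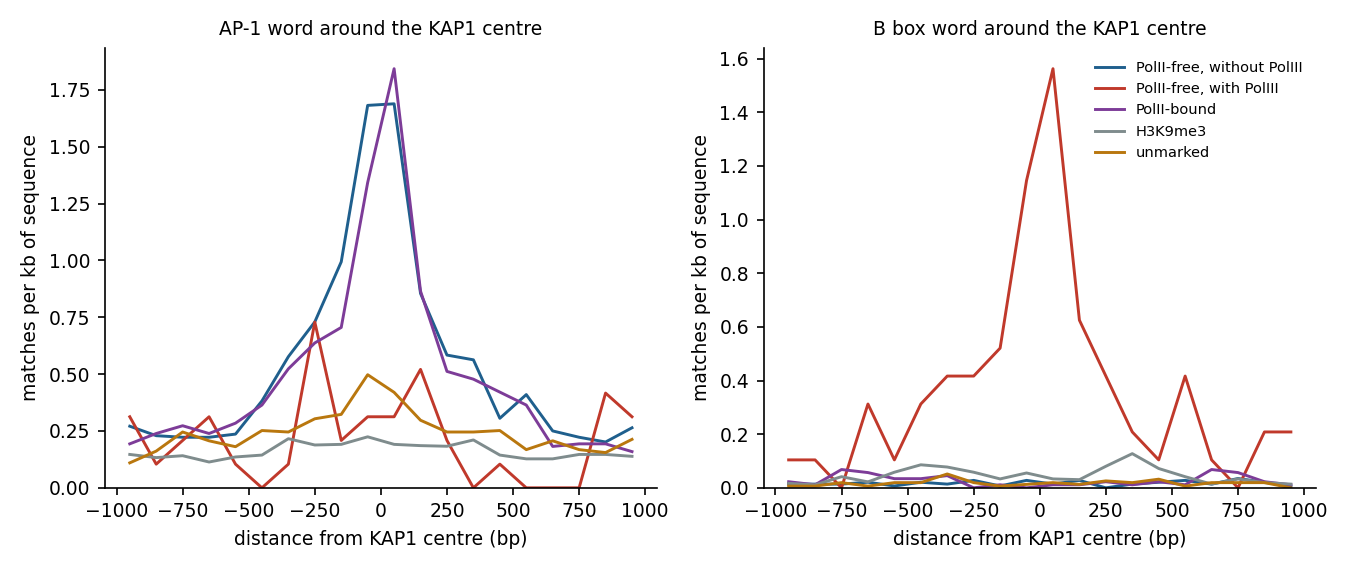
Matches per kb of the AP-1 word (left) and the B box word (right) in bins of 100 bp around the KAP1 centre, for PolII-free sites with and without PolIII and for the 3 other distal classes without PolIII. The AP-1 word is densest at the centre of PolII-free sites without PolIII (1.69 per kb within 100 bp) and of PolII-bound sites (1.59), and the B box word at the centre of sites with PolIII (1.35).

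The AP-1 word was less frequent at high KAP1 scores. The share with the word was 48.5% (44.6 to 52.4%) at scores of 50 to 75 and 13.6% (7.34 to 23.9%) at 1000 or more, where 63 of 66 sites had PolIII. In the 4 ranges between it was 45.5, 39.2, 42.2 and 33.8%. A fall between these ranges was also present in all KAP1 peaks, from 19.3% (18.1 to 20.6%) to 5.98% (4.22 to 8.40%), and in PolII-bound sites, from 46.0% (40.4 to 51.6%) to 8.0% (3.15 to 18.8%). Among sites without PolIII, the 646 with the word had a median score of 77.4 (quartiles 62.0 and 116) and the 793 without it 84.5 (62.5 and 132). Both marks were present at 75.4% (71.9 to 78.6%) of the former and 68.2% (64.9 to 71.4%) of the latter. Over all PolII-free sites, with PolIII included, the word was at 46.1% of sites with both marks, 8.38 points (1.49 to 14.9) above those with H3K27ac alone and 10.6 points (3.29 to 17.5) above those with H3K4me1 alone. PolIII was at 5.25, 7.38 and 10.2% of these sites in the same order, and its part in the differences was not tested.

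**Figure D4:**
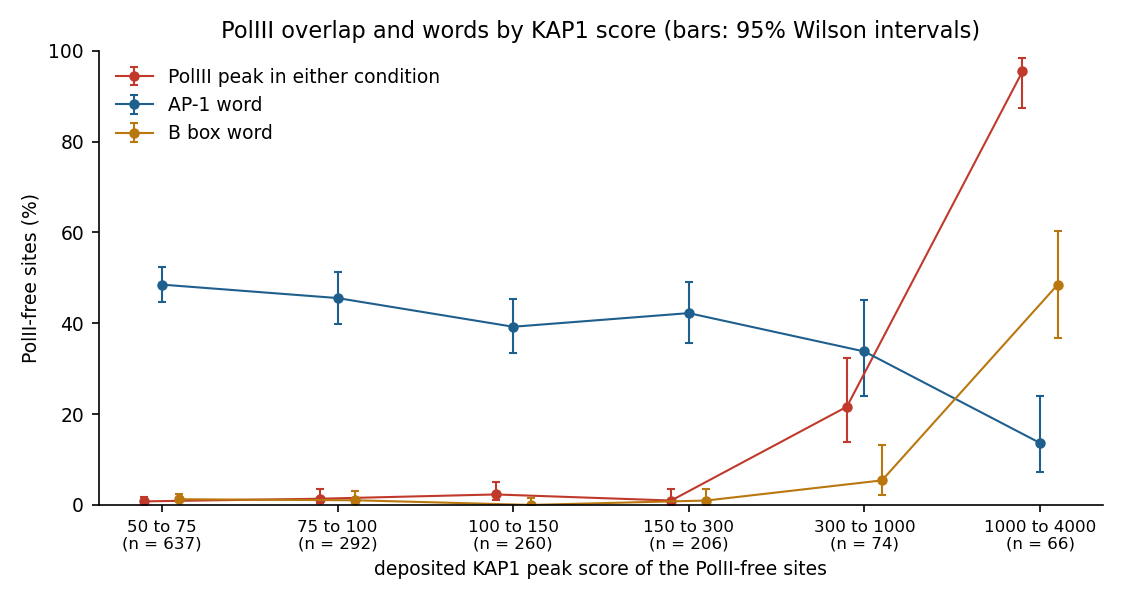
Share of PolII-free sites (%) with a PolIII peak of either condition, with the AP-1 word and with the B box word, in 6 ranges of the deposited KAP1 score. Points are shares and bars 95% Wilson intervals, and PolIII goes from 0.785% at scores of 50 to 75 to 95.5% at 1000 or more while AP-1 goes from 48.5 to 13.6%.

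Words of the zinc finger proteins ZFP57 and YY1 were scarcer than at H3K9me3 and unmarked sites, and for both the interval of the difference to PolII-bound sites held 0. The ZFP57 word, bound by a KRAB zinc finger protein that holds KAP1 at imprinted regions, was at 10.4% of PolII-free sites and 32.6% of all KAP1 peaks, compared with 40.8% of H3K9me3 sites (difference -30.4 points, -32.5 to -28.1) and 40.0% of unmarked sites (difference -29.7, -32.5 to -26.8). PolII-bound sites held it in 10.0%, which differed by 0.358 points (-2.19 to 2.76). The YY1 word was at 4 PolII-free sites (0.261%), 4.47% of all KAP1 peaks and 8.62% of H3K9me3 sites (difference -8.36 points, -9.33 to -7.40). Unmarked sites held it in 2.70% (difference -2.44, -3.37 to -1.64) and PolII-bound sites in 0.543% (-0.283, -1.02 to 0.230). Among words of factors active in the liver, HNF4 was at 1.37%, HNF1 at 2.80% and DR1 at 3.06% of PolII-free sites (0.585, 1.13 and 2.24% of all KAP1 peaks). They were 0.986 points (0.448 to 1.72), 1.93 points (1.13 to 2.91) and 1.75 points (0.890 to 2.79) above H3K9me3 sites. From PolII-bound sites they differed by 0.281 (-0.737 to 1.15), 1.06 (-0.222 to 2.22) and -1.29 points (-2.98 to 0.220). C/EBP words were at 19.0% (16.6% of all KAP1 peaks), and the intervals of the differences to the 3 classes, -1.53 to 1.12 points, all held 0. FOXA words were at 13.03% of PolII-free sites (200 of 1535), and 11.6% of all KAP1 peaks held one. The difference was -5.52 points (-7.57 to -3.37) to the 18.6% of H3K9me3 sites, 1.72 (-0.998 to 4.32) to PolII-bound sites and 2.09 (-0.185 to 4.38) to unmarked sites. CTCF words were at 1.63% (2.52% of all) and CRE words at 1.24% (2.39% of all), with intervals of the difference to PolII-bound sites that held 0. From H3K9me3 sites CTCF differed by 1.03 points (0.422 to 1.82) and CRE by -1.05 (-1.75 to -0.240).

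From the PolII-bound sites, the PolII-free sites differed in the GC box, ETS, E-box and AP-1 words. The GC box was at 13.3% of PolII-free sites, 30.8% of all KAP1 peaks and 24.2% of PolII-bound sites, the last a difference of -10.9 points (-14.2 to -7.74). The ETS word was at 1.04% (3.47% of all) and differed by -1.68 points (-3.00 to -0.592). The E-box, bound by Myc and USF proteins, was at 7.95% (10.3% of all) and differed by -2.49 points (-4.97 to -0.158). For the other 10 of 14 words the interval held 0. The median G+C content in 500 bp was 46.2% (quartiles 43.0 and 49.6%) at PolII-free sites, 49.0% at PolII-bound, 47.6% at H3K9me3 and 45.8% at unmarked sites. The CpG ratio was 0.205, 0.259, 0.357 and 0.257 in the same order.

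**Figure D5:**
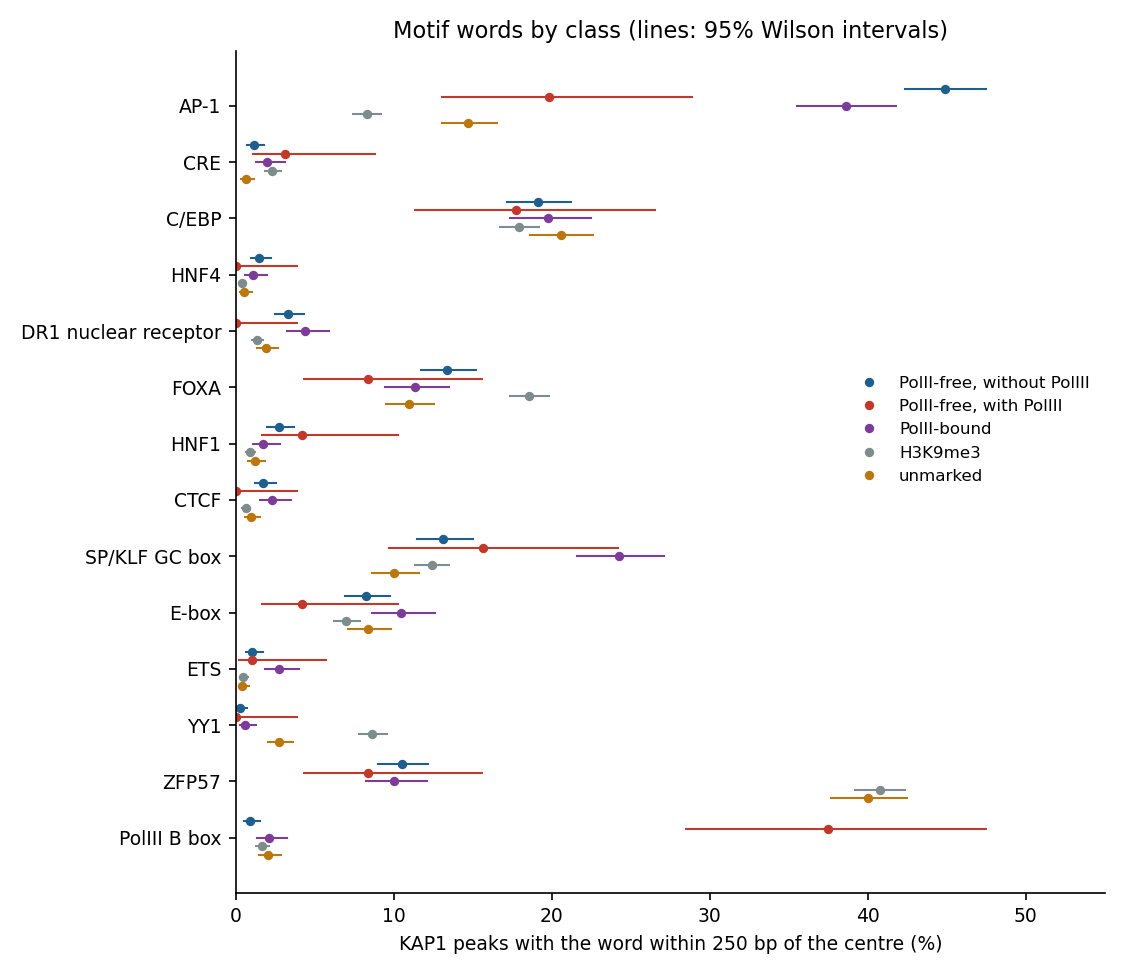
Share of KAP1 peaks (%) with each of 14 words within 250 bp of the centre, for PolII-free sites with and without PolIII and the 3 other distal classes. Points are shares and lines 95% Wilson intervals, with AP-1 at 44.9% of PolII-free sites without PolIII, the B box at 37.5% of those with PolIII, and ZFP57 at 40.8% of H3K9me3 sites.

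The AP-1 word was also counted at the middle of active regions, rather than at KAP1 centres. Regions are another unit and another set, so these shares are not comparable with those at KAP1 centres. The KAP1 centre lay inside an H3K27ac region at 46.5% of PolII-free sites with that mark, so the middle of a region can lie away from it. Among H3K27ac regions with H3K4me1, beyond 3 kb and without H3K9me3 or PolII, 1403 overlapped a PolII-free site without PolIII and 19788 overlapped no KAP1 peak. In 500 bp at the middle of the H3K27ac region, the word was at 16.6% of the former and 14.5% of the latter, a difference of 2.14 points (0.223 to 4.24). The words of ZFP57 (1.49 points, 0.531 to 2.69), the GC box (1.20, 0.00980 to 2.61) and CRE (0.410, 0.0730 to 1.01) were also more frequent in the former. C/EBP (-3.45, -5.47 to -1.26) and FOXA (-1.96, -3.26 to -0.446) were less frequent, and for the remaining words the interval held 0. By width the AP-1 shares were 18.9% (14.6 to 24.2%) and 13.5% (12.7 to 14.4%) in the narrowest of 3 groups. They were 9.78% (7.36 to 12.9%) and 10.6% (9.85 to 11.3%) in the middle group, and 20.2% (17.4 to 23.3%) and 19.3% (18.4 to 20.3%) in the widest, over 954 bp. Regions with a PolII-free site were wider (median 946 against 635 bp) and richer in G+C (44.2 against 41.8%).

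PolII-free sites lay in intergenic sequence at 938 positions (61.1%), in introns of protein-coding genes at 503 (32.8%), in introns of other genes at 60 (3.91%) and in exons at 34 (2.21%). Over all KAP1 peaks these shares were 58.1, 23.6, 2.45 and 15.9%. The intron share was 12.8 points (10.1 to 15.5) above that of H3K9me3 sites, 8.76 points (5.60 to 11.9) above unmarked sites and 2.99 points (-0.823 to 6.72) from PolII-bound sites. The start of a non-coding transcript was within 1 kb of 23 PolII-free sites (1.50%), 2.73% of all KAP1 peaks and 4.46% of PolII-bound sites, a difference to the last of -2.96 points (-4.57 to -1.59). The difference was 1.03 points (0.464 to 1.79) to H3K9me3 sites and 0.493 (-0.304 to 1.33) to unmarked sites. Of sites with PolIII, 79.2% were intergenic and 11.5% in introns of protein-coding genes. The median distance to a protein-coding transcript start was 27432 bp, from 3014 to 1950209 bp. It was 13662 bp at sites with PolIII and 29507 bp at those without.

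At the limit of the rule, the nearest sites outside 3 kb lay 3014 bp from the start of Ccnd3, a D-type cyclin (chr17:47644450-47645577, score 107.79), and 3061 bp from that of Nr5a1, an orphan nuclear receptor (chr2:38572649-38573597, 62.89). The nearest KAP1 peaks inside it lay at 2989 bp, near Fam83g (chr11:61500367-61501452, 58.52), and at 2953 bp, near Daglb (chr5:144235994-144237541, 65.67). Absence of PolII has a limit too, because the numbers of the deposited PolII peaks have gaps, whose origin was not tested. No number was missing from either PolII list around 1244 of the sites (81.0%), and around the other 291 a removed call is possible. Over the whole lists 31.3% of the control and 22.6% of the Kap1 KD PolII numbers were missing, a share of numbers and not of sites. The nearest deposited PolII peak was a median of 31267 bp away, within 1 kb at 53 sites and beyond 50 kb at 609 (39.7%).

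The sites were spread over many genes. They had 1271 different nearest genes, 1076 of which had 1 site and 47 had 3 or more. Besides Zfp184 and Trim27, the most sites were nearest Myc, with 6, all with both marks and without PolIII, 95011 to 531073 bp from its start and with scores of 59.73 to 171.98. Grhl2, a transcription factor of epithelial cells, had 5 (scores 51.13 to 118.88, none with the AP-1 word). Ism1, which encodes the secreted protein isthmin, had 5 (64.27 to 214.96, 2 with the AP-1 word) and Nckap5 had 5 (63.83 to 340.54, 3 with it). The Myc and Grhl2 sites lie on chromosome 15.

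Gene lists were read against the 7.80% of all protein-coding genes that had a PolII-free site within 50 kb of the 5′ end. The counts were 7 of 22 cytoskeleton and adhesion genes (31.8%, 16.4 to 52.7%), 6 of 24 nuclear receptor genes (interval 12.0 to 44.9%) and 5 of 22 immediate early genes (22.7%, 10.1 to 43.4%). They were 4 of 20 for KAP1 partner and heterochromatin genes (interval 8.07 to 41.6%) and 5 of 30 for ribosomal protein genes (16.7%, 7.34 to 33.6%). The list of neuronal and glial genes had 3 of 20 (interval 5.24 to 36.0%). Liver transcription factor genes had 2 of 15 (13.3%, 3.74 to 37.9%), apolipoprotein genes 0 of 13 (up to 22.8%) and plasma protein genes 0 of 30 (up to 11.4%). Only the first 4 of these intervals lay above the background at 50 kb, and no test was made. Neighbouring genes can be counted through the same site, and the intervals take genes as separate. In the cytoskeleton list this held for the keratin gene Krt18 and a keratin gene beside it, within 20 kb as well. Within 20 kb the background was 3.21%. At that distance KAP1 partner genes had 0 of 20 (up to 16.1%) and immediate early genes 2 of 22 (2.53 to 27.8%), so that neither interval lay above the background, whereas cytoskeleton genes had 6 of 22 (13.2 to 48.2%) and nuclear receptor genes 3 of 24 (4.34 to 31.0%). Within 100 kb, with a background of 14.9%, the intervals of ribosomal protein genes (9 of 30, 16.7 to 47.9%) and liver transcription factor genes (5 of 15, 15.2 to 58.3%) lay above it too, and the lower limit of nuclear receptor genes (7 of 24) was at it, so the lists above the background changed with the distance.

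In the cytoskeleton list the highest-scoring sites were at Myh9, the heavy chain of non-muscle myosin (score 101.71, at 9212 bp, with the AP-1 word), Tpm1, a tropomyosin (84.69, at 22735 bp), the matricellular gene Cyr61 (82.94, at 35055 bp) and the keratin gene Krt18 (81.99, at 9966 bp). Among nuclear receptors they were at Nr1h4, the bile acid receptor (103.96, at 6309 bp, with the AP-1 word), at the neighbours Nr1d1 and Thra, which share their sites (95.8, at 13648 and 48343 bp), and at Ppard, a fatty acid receptor (65.22, at 19307 bp). Fosb, whose product is a subunit of AP-1, had a site with a score of 3100 and PolIII at 8754 bp, and Ier5, Atf3 and Ier3 had sites of 113.42, 68.72 and 63.78 with the AP-1 word.

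Setdb1, the H3K9 methyltransferase recruited by KAP1, had a site of 140.28 at 45884 bp, Zfp57 one of 141.72 at 26369 bp, Mta2, of the NuRD complex, one of 183.71 and Atf7ip, a partner of SETDB1, one of 88.61. The liver factors Hhex and Tbx3 had sites of 600.8 and 244.5 at 41270 and 47610 bp. The ribosomal protein genes with the highest-scoring sites were Rpl13 (332), Rps15 (296.04), Rps2 (96.39) and Rpl3 (65.53). In the list of neuronal and glial genes they were Mbp (113.63), Gad1 (58.29) and Snap25 (50.32).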

How the data were processed

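Per the methods of the study and the labels, the authors aligned reads to mm9 with Bowtie. They used MACS with total input as background for KAP1 and PolII, and ChIP-Part for the histone mark regions. The caller used for PolIII is not given in the sources used here. The deposited KAP1, PolII and PolIII lists hold positions, a peak number and a score per peak, and the histone lists positions only. The score of the deposited KAP1 list, taken to be that of MACS, was used as it stands (lowest 50.02). For the control cells the labels name a control shRNA and the methods an empty vector, and the labels write both transfected and transduced. The 5 inputs have no list and were not used.

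Regions overlapping by 1 bp or more counted as shared. Starts were the 45968 positions of transcripts of type protein_coding in GENCODE M1, and sequence was read from NCBIM37 (mm9), with positions counted from 1. Shares carry 95% Wilson intervals and differences of shares 95% Newcombe intervals, computed in Python 3.11.15 with numpy 2.4.6. Peaks of 1 library are not replicates, so no p-value was computed. The code was tested on simulated intervals. Words were searched within 250 bp of the KAP1 centre on both strands. Named sites were the 2 of highest score in each mark composition and with PolIII, outside chromosome 18, and the 2 nearest the 3 kb limit on each side. Named genes were up to 4 per list with the highest-scoring site within 50 kb and the 5 genes nearest most sites, with ties. The sites, lists and words were chosen with earlier results of these data known. The regions without PolIII and the sequences were picked after their values were seen. Hepatocyte, blood, endothelial and fibroblast markers were read as H3K27ac within 250 bp of the 5′ end. Some listed genes and 1 gene list are not reported here.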

Additional observations from a re-analysis of the deposited data

How the results depend on the processing

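No paired analysis was possible because each antibody and condition has 1 library and no result comes from a test. The alternatives gave 145 values for 14 results, of which 118 stayed within the interval of the reported value (or within 1.5 times a count), 27 moved and none changed the sign of a difference whose interval left out 0. Leaving out chromosome 13 or PolIII sites, using all transcripts of protein-coding genes, the 200 and 1000 bp windows for AP-1, and every setting for the B box difference were chosen after seeing the data.

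With an active mark required over at least 0.5 of the KAP1 peak, the PolIII difference to PolII-bound sites became -0.863 points (-2.63 to 0.751), the median width 1094 bp, the intron share 35.2%, the share with both marks 84.3%, the B box difference between sites with and without PolIII 22.8 points, and the AP-1 difference to H3K9me3 sites 39.2 points. Among KAP1 peaks above the median score there were 593 sites, with a PolIII difference of 4.96 points (0.820 to 8.90), a median width of 1251 bp, and AP-1 differences of 28.8 points to H3K9me3 and 22.5 to unmarked sites. The share above the median score has no value there. The 1 kb limit gave 7 words that differed from PolII-bound sites instead of 4, and the 10 kb limit an intron share of 30.4%. With the control PolII list alone there were 2080 sites, a median width of 1105.5 bp, 46.8% G+C, 75.4% with both marks and an AP-1 difference of 12.8 points to PolII-bound sites. Without PolIII sites the share above the median score was 35.2%. In windows of 200 bp the G+C content was 47.5%, the B box difference 25.7 points and the AP-1 differences 22.2 and 18.6 points to H3K9me3 and unmarked sites. In windows of 1000 bp the G+C content was 45.4% and those AP-1 differences 40.7 and 32.8 points. Over the whole peak the B box difference was 50.2 points. Within 20 kb 14 genes of the 10 lists had a site, compared with 33 within 50 kb and 49 within 100 kb. The cause of these changes was not tested. The AP-1 difference to PolII-bound sites ranged from 1.60 to 12.8 points, and its interval held 0 with the 10 kb limit, starts of all gene types, 200 bp windows and without chromosome 15 (3.24, -0.978 to 7.41). With starts of all transcripts of protein-coding genes there were 1495 sites. Depth is unknown for every list and limits which weak peaks were called.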

Other observations

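PolII-free sites were unevenly spread over the chromosomes. Chromosomes 19, 15 and 11 held 1.12, 1.07 and 1.04 of them per Mb, whereas chromosome X held 0.0180, chromosome 12 0.0990, chromosome 14 0.1198, chromosome 9 0.177 and chromosome 16 0.214. The whole KAP1 list had 9.26, 8.41 and 9.29 peaks per Mb on chromosomes 19, 15 and 11 and 0.966 to 1.89 on X, 12, 14, 9 and 16. H3K27ac regions numbered 38.5 per Mb on chromosome 15 and 11.5 to 14.99 on those 5 chromosomes. None of the 111 PolII-free sites on chromosome 15, the 91 on chromosome 10, the 21 on chromosome 16 and the 3 on X overlapped a deposited PolIII peak. This cannot be read as absence of PolIII from these chromosomes. The control PolIII list held 89.5% of its 2772 peaks on chromosomes 1 to 4, and numbers are missing from both PolIII lists.

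The 6 PolII-free sites in chr5:135386085-135505627 formed the largest group without PolIII. Their scores were low, from 50.22 to 76.27.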
